A study of Homo sapiens with 4 samples.

Results

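The genes described here are the 4 ERBB receptor tyrosine kinases (EGFR, ERBB2, ERBB3 and ERBB4) and 6 ligands of the EGF family (AREG, EREG, HBEGF, TGFA, BTC and NRG1). They were taken as every non-control probe that carried one of these gene names on the array, which gave 21 probes for 10 of the 27223 genes tested. All 10 genes and 20 of the 21 probes passed the filter on dim probes, which kept a probe that Agilent's software called well above background, in Ctrl or in KO, on both arrays of either group. The RNA came from A2780s, an established epithelial ovarian cancer (EOC) cell line, in which the study disrupted the mucin-type O-glycosyltransferase genes GALNT3 and GALNT6. The GALNT3 KO group held 2 clones made with CRISPR/Cas9 and a repair plasmid, selected in puromycin and treated with Cre, and each clone grew from a single colony. The GALNT3/T6 KO group held 2 clones in which lentiviral shRNA against GALNT6 had been added to GALNT3 KO clones, so transduction and a further selection go together with that group. Each clone was hybridized in the red dye (Cy5) against mock-transfected Ctrl cells in the green dye (Cy3), 1 clone to an array, and no dye swap was made. Each value is the log2 of the KO signal over the Ctrl signal after loess normalization within each array, positive where KO was higher.

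ERBB receptors sit in the plasma membrane, bind ligands of the EGF family from outside the cell, pair with one another and phosphorylate tyrosines on their own tails. EGFR binds EGF, TGFA and AREG, while HBEGF, BTC and EREG can bind ERBB4 as well as EGFR, and NRG1 binds ERBB3 and ERBB4. ERBB2 has no known ligand and serves as a preferred partner of the other receptors, and ERBB3 has little kinase activity of its own. The ligands are made as membrane proteins and are set free by metalloproteases, mainly ADAM10 and ADAM17. The receptors signal through the RAS-ERK cascade among other routes, and EGFR and ERBB2 are long known from carcinomas, those of the ovary included.

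Before the members are described, 3 facts about the arrays bear on them. GALNT3 itself stood at 4.80 and 5.08 on the 2 arrays of the GALNT3/T6 KO label, against what that label says, so they are called the GALNT3/T6-labelled arrays throughout. On the GALNT3 KO arrays neither channel of its probe was well above background, and it checks nothing there. GALNT6 was lower in both groups, at a mean of -0.42 in GALNT3 KO (adjusted p = 0.0446) and -0.67 on the GALNT3/T6-labelled arrays (adjusted p = 0.00335). The first of these calls was lost without either GALNT3 KO array, as was every call in GALNT3 KO. Its ratio was then -0.38 without replicate 1 and -0.465 without replicate 2. All of these are RNA values, while the study checked its clones by Western blot. There GALNT3 protein was lost and GALNT6 protein rose in the GALNT3 KO clones. For its GALNT3/T6 KO clones the study reported a complete loss of GALNT6 protein. The share of spots well above background ran from 86.9% to 93.8% over the channels, and no spot was saturated. The labels name the same kind of mock-transfected Ctrl for all 4 arrays, while the study's methods speak of corresponding Ctrl clones. After normalization the Ctrl signal was at least 1 log2 unit higher on the GALNT3/T6-labelled arrays than on the GALNT3 KO arrays for 289 genes (1.06%), EGFR and NRG1 among them, and at least 1 unit lower for 31 genes. For GALNT3 the Ctrl signal was 1.40 higher there and for the keratin KRT18 2.49 higher. For NRG1 the difference of 1.1 was 0.26 without replicate 1 of GALNT3 KO and 1.94 without replicate 2. For EGFR it was 1.72 and 1.74 without these arrays in turn. The part of the Ctrl signal in the results was not tested. All 4 arrays lay on 1 slide, and the position on the slide cannot be told apart from the group.

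The members changed mainly on the GALNT3/T6-labelled arrays. There EGFR, HBEGF, TGFA, EREG and NRG1 were higher than Ctrl and ERBB2 and ERBB4 were lower. That is 7 of 10 members with an adjusted p of 0.05 or less (Benjamini-Hochberg) in limma's moderated test, where 47.8% of all genes tested were called. Among the 7, TGFA passed the filter on dim probes only through its KO signal on these arrays. By direction, 5 were called higher, beside 24.8% of all genes, and 2 lower, beside 23.1%. In GALNT3 KO only NRG1 was called, 1 of 10 members beside 11% of all genes, or 4.69% of all genes in its direction, higher. The median log2 ratio of the members was -0.08 in GALNT3 KO and 0.32 on the GALNT3/T6-labelled arrays, and that of all genes was 0.02 and 0.03. With 2 clones in a group, and each clone on 1 array, the p-values measure the spread between clones and leave out the spread of Ctrl. In RNA from whole cultures, fewer cells that express a gene and less RNA per cell cannot be told apart.

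EGFR, the founding receptor of the family, was measured by a single probe spotted 10 times on each array, at chr7:55274841-55274900 on the plus strand of hg19. It stood at -0.04 and -0.15 in the GALNT3 KO clones and 1.31 and 1.54 on the GALNT3/T6-labelled arrays. The groups did not overlap, and Ctrl and KO were close in GALNT3 KO. The 10 spots had a standard deviation of 0.16 and 0.19 on the GALNT3 KO arrays and of 0.32 and 0.42 on the others, and each of the 10 spots was above 0 on both GALNT3/T6-labelled arrays, the lowest at 0.74. On those arrays EGFR was 2.69-fold higher than Ctrl (log2 1.43, standard error 0.10, adjusted p = 0.000659). In GALNT3 KO the mean was -0.09 (adjusted p = 0.511), with a 95% interval from -0.35 to 0.16. The Ctrl channel of EGFR was not level across the arrays. Its log2 signal was 7.51 and 7.53 on the GALNT3 KO arrays and 8.78 and 9.71 on the GALNT3/T6-labelled arrays, a mean difference of 1.73, and the KO channel differed by 3.25.

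ERBB2, the partner receptor with no known ligand, was lower on all 4 arrays by the probe used, which lies at chr17:37884829-37884888 and is spotted 10 times. It stood at -0.36 and -0.53 on the GALNT3 KO arrays and at -1.22 and -0.72 on the GALNT3/T6-labelled arrays. On the latter it was 1.96-fold lower than Ctrl (log2 -0.97, standard error 0.15, adjusted p = 0.0067). In GALNT3 KO the mean of -0.44 did not pass (adjusted p = 0.111), and the same value was called, at 0.0103, when each group was fitted with its own spread. A further ERBB2 probe, at chr17:37866650-37866709 and thus nearer the 5′ end of the gene, gave values near 0 on all arrays. It read -0.07 and -0.08 in GALNT3 KO and -0.03 and -0.06 on the GALNT3/T6-labelled arrays, with an adjusted p of 0.669 there in a fit across single probes. With the mean of all ERBB2 probes that passed, the ratio on those arrays was -0.51 (adjusted p = 0.0114). The remaining ERBB2 probe was not well above background on any array.

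ERBB3, which binds NRG1 and signals through its partners, stood at -0.05 and -0.08 on the GALNT3 KO arrays and at 0.12 and 0.42 on the GALNT3/T6-labelled arrays. The latter mean of 0.27 did not pass the test (adjusted p = 0.0943, 95% interval from -0.01 to 0.54). It was called without replicate 1 of that group, at 0.42 with an adjusted p of 0.0323, with Agilent's own log ratio, at 0.69 with 0.00626, and with the mean of all its probes, at 0.48 with 0.00662. That mean also differed between the groups, by 0.525 (adjusted p = 0.0248). The 3 ERBB3 probes did not read alike. The probe at chr12:56482713-56482772 read 0.11 and 0.12 in GALNT3 KO and 1.58 and 1.19 on the GALNT3/T6-labelled arrays (adjusted p = 0.00106 across single probes). The one at chr12:56487630-56487689 read -0.09 and -0.27, and then -0.28 and -0.14 (adjusted p = 0.127). The Ctrl signal of the first of these was not well above background on 1 of the 4 arrays.

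ERBB4, a receptor for neuregulins and for HBEGF and BTC, stood farthest from Ctrl among the 10 members, on the GALNT3/T6-labelled arrays. By the brighter of its 2 probes, at chr2:212240515-212240574 on the minus strand, it stood at -0.08 and -0.51 on the GALNT3 KO arrays and at -2.99 and -3.35 on the GALNT3/T6-labelled arrays. Both of the latter lay far below both of the former. ERBB4 was there 8.99-fold lower than Ctrl (log2 -3.17, standard error 0.15, adjusted p = 0.000274). Its Ctrl signal was nearly the same on all arrays, between 13.83 and 13.92, and the KO signal was 13.75 and 13.40 in GALNT3 KO against 10.89 and 10.57. The other probe lies nearer the 5′ end of the gene, at chr2:212247008-212247067. It also fell on the GALNT3/T6-labelled arrays, to -0.89 and -0.96 (adjusted p = 0.00117 across single probes), but it read 0.59 and 0.56 in GALNT3 KO, higher than Ctrl (adjusted p = 0.0291). With the mean of both probes the ratio was -2.05 on the GALNT3/T6-labelled arrays (adjusted p = 0.000256) and 0.14 in GALNT3 KO (adjusted p = 0.373).

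NRG1, the neuregulin that binds ERBB3 and ERBB4, was higher than Ctrl on all 4 arrays and was the only member called in both groups. The probe used read 2.03 and 1.65 on the GALNT3 KO arrays and 2.61 and 3.09 on the GALNT3/T6-labelled arrays. NRG1 was 3.58-fold higher in GALNT3 KO (log2 1.84, standard error 0.16, adjusted p = 0.0156) and 7.21-fold higher on the GALNT3/T6-labelled arrays (log2 2.85, adjusted p = 0.000411). Without replicate 1 and without replicate 2 of GALNT3 KO in turn, the ratio there was 1.65 and 2.03. The call was lost in both fits, as was every call in GALNT3 KO, so that loss sets NRG1 apart in nothing. With the replicate number as a block the call was lost as well (adjusted p = 0.071), in a fit that called 0.301% of all genes.

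The gene is long and its isoforms differ at both ends, and the array carries 4 NRG1 probes, 2 of which cross introns. The other intron-crossing probe read 1.48 and 1.80, then 2.44 and 2.66. A probe at chr8:32621831-32621890 read 2.52 and 1.64, then 1.61 and 2.31. The probe for the sensory and motor neuron-derived isoform, at chr8:32505645-32505704, read 1.16 and 1.23 in GALNT3 KO and only 0.12 and 0.08 on the GALNT3/T6-labelled arrays. All 4 probes were thus above Ctrl in GALNT3 KO, each with an adjusted p of at most 0.0251 across single probes, and 3 of the 4 on the GALNT3/T6-labelled arrays, where the isoform probe did not pass (adjusted p = 0.344). Between the groups that probe fell by 1.097 (adjusted p = 0.00401), while the probe used rose by 1.01 (adjusted p = 0.0339 across single probes). The mean of all NRG1 probes was 1.69 in GALNT3 KO and 1.87 on the GALNT3/T6-labelled arrays.

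HBEGF, a heparin-binding ligand of EGFR and ERBB4, stood at 0.03 and 0.17 on the GALNT3 KO arrays and at 1.02 and 1.17 on the GALNT3/T6-labelled arrays. It was there 2.14-fold higher than Ctrl (log2 1.095, standard error 0.09, adjusted p = 0.00119), and in GALNT3 KO the mean of 0.10 did not pass (adjusted p = 0.466). The second HBEGF probe moved the same way by less, from -0.06 and -0.08 to 0.49 and 0.42 (adjusted p = 0.00994 against Ctrl across single probes). The Ctrl signal of the probe used was 7.76 and 9.06 on the GALNT3 KO arrays and 9.42 and 9.0 on the others.

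TGFA, a ligand of EGFR alone, was not well above background in Ctrl on any array, and in the KO channel it was above background on 1 of 2 GALNT3 KO arrays and on both GALNT3/T6-labelled arrays. The measured log2 ratios were 0.01 and 0.34, and then 1.05 and 1.20. TGFA thus passed the filter on dim probes only through its KO signal on the GALNT3/T6-labelled arrays, so its test there is no independent support. On those arrays it was at least 2.11-fold higher than Ctrl (adjusted p = 0.00205). The bound sets the mean KO signal against the higher of the Ctrl signal and the lowest signal that counts as well above background on each array, and with no dye swap it is open to dye bias. No bound could be set in GALNT3 KO. Agilent's own log ratio, which subtracts more background, gave 2.31 on the GALNT3/T6-labelled arrays.

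EREG, a ligand of EGFR and ERBB4, changed little. It stood at 0.21 and 0.09 on the GALNT3 KO arrays and at 0.29 and 0.44 on the GALNT3/T6-labelled arrays. The mean of 0.36 on the latter passed the test (1.29-fold, adjusted p = 0.0278), and that call was lost without either GALNT3 KO array (adjusted p = 0.0799), without replicate 2 of the GALNT3/T6-labelled group (adjusted p = 0.114) and with the replicate number as a block (adjusted p = 0.0769). The second EREG probe read 0.27 and 0.12 there (adjusted p = 0.148 across single probes).

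AREG and BTC were the ligands with no call in any comparison. AREG, an EGFR ligand, read -0.18 and -0.29 in GALNT3 KO and 0.02 and 0.17 on the GALNT3/T6-labelled arrays, with 95% intervals of the means from -0.47 to 0.00 and from -0.14 to 0.33. With Agilent's own log ratio the latter mean was 0.53 and was called (adjusted p = 0.0104). BTC, betacellulin, read -0.04 and -0.12, and then 0.17 and 0.10, with intervals from -0.29 to 0.13 and from -0.08 to 0.35. A change of these sizes in BTC could not be told from the spread between clones.

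**Figure D1:**
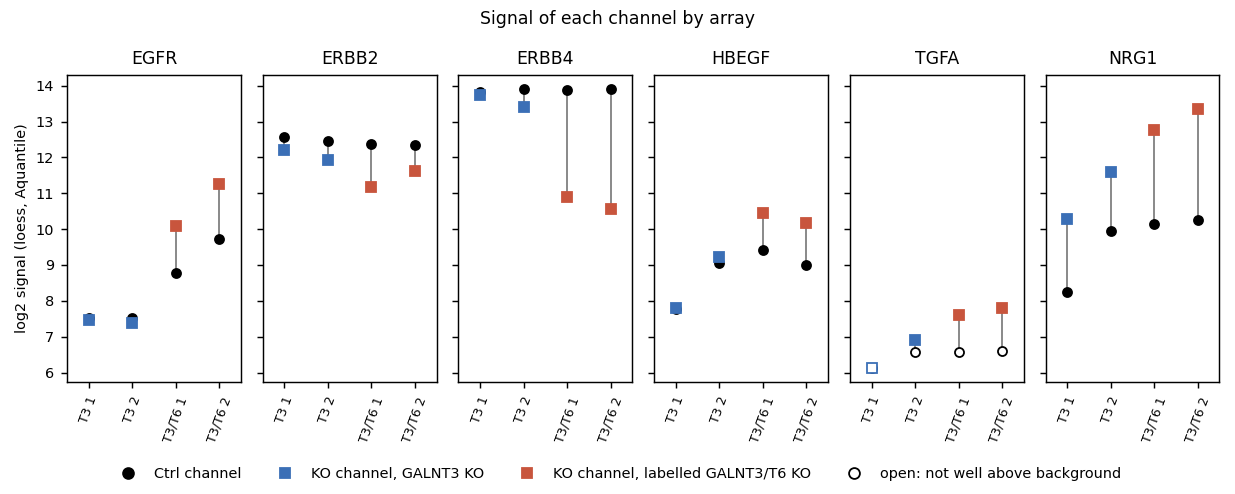
Log2 signal after loess and scaling between arrays (vertical axis) of the Ctrl channel (circles) and the KO channel (squares) on each of the 4 arrays, where T3 is GALNT3 KO and T3/T6 is the label GALNT3/T6 KO, for the 6 members that are shown. Open symbols were not well above background. The Ctrl signal of ERBB4 stays between 13.83 and 13.92, while that of EGFR goes from 7.51 and 7.53 to 8.78 and 9.71.

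Set against each other, the groups differed in 5 of 10 members, beside 23.7% of all genes, 4 of them higher and 1 lower, beside 11.8% in each direction. Relative to GALNT3 KO, the GALNT3/T6-labelled arrays were higher by 1.52 in EGFR (standard error 0.14, adjusted p = 0.00292), by 1.00 in HBEGF (adjusted p = 0.00802), by 0.95 in TGFA (adjusted p = 0.0166) and by 1.01 in NRG1 (adjusted p = 0.0375), and ERBB4 fell by 2.87 (standard error 0.21, adjusted p = 0.00173). The TGFA value sets ratios to a Ctrl signal that was not well above background against each other, so its size is not settled. With Agilent's own log ratio it was 1.79. TGFA also passed the filter only through its KO signal on the GALNT3/T6-labelled arrays. ERBB2 differed by -0.53, with an interval from -1.07 to 0.02 (adjusted p = 0.152). ERBB3, AREG, EREG and BTC differed by 0.22 to 0.34 and did not pass. When either GALNT3 KO array was left out, 1 of 10 members, ERBB4, was still called between the groups, beside 4.44% and 5.23% of all genes. The NRG1 difference was 0.65 with Agilent's own log ratio (adjusted p = 0.202), 0.18 with the mean of all its probes (adjusted p = 0.553) and 1.01 with the replicate block (adjusted p = 0.0872). All of these comparisons share the Ctrl design, so the values of a member in the 3 comparisons are not independent.

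The 20 member probes that passed were also tested on their own in a fit across 38247 probes. In GALNT3 KO 5 were called, beside 11.5% of all probes, and all 5 were higher, beside 4.37%. These were every NRG1 probe and the ERBB4 probe that was not used, and probes of 1 gene are not independent. On the GALNT3/T6-labelled arrays 12 were called, beside 48.9%, of which 9 were higher, beside 24.1%, and 3 lower, beside 24.8%, and between the groups 10 were called, beside 25.3%. The single-probe fit was chosen after seeing the data. Probes of ERBB2, ERBB3, ERBB4, HBEGF and NRG1 differed in size. They differed in sign in GALNT3 KO for ERBB3, ERBB4 and HBEGF and on the GALNT3/T6-labelled arrays for ERBB3. Between the groups they did so for ERBB2, ERBB3 and NRG1, and some of these values were near 0. What sets these probes apart was not tested. Below are the probes of 3 members that lie away from the far 3′ end of the transcript, so that a reader can see what was read. Each is 60 bases long and runs through at least 1 reading frame without a stop codon. The ERBB2 probe is the one near 0 on all arrays, the EREG probe is the one used and spans 1567 bases at chr4:75246853-75248419 on the plus strand, so it crosses an intron, and the HBEGF probe, at chr5:139715508-139715567 on the minus strand, is the one that rose by less. All positions are in hg19.
ERBB2: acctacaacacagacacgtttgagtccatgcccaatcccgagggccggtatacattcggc
EREG: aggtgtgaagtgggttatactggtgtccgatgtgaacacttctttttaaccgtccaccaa
HBEGF: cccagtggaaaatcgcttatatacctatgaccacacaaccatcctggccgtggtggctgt

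EGFR, HBEGF and TGFA rose together on the GALNT3/T6-labelled arrays while ERBB4 fell, and the 250 bases before their RefSeq starts are shown for that reason, in GRCh38.p14 and in the direction of transcription. Windows for 8 of the 10 members were matched by symbol in the RefSeq promoter table, with ERBB3 and NRG1 unmatched. Capitals mark the GC box, GGGCGG on either strand, a motif known to be bound by SP1. It was searched on both strands, as were TGACTCA (the AP-1 site), TGACGTCA (the CRE), CACGTG (the E box) and, for the TATA box, the letters TATAAA. The first start of EGFR is preceded by chr7:55018767-55019016 on the plus strand, the start of HBEGF by chr5:140346604-140346853 on the minus strand, the upstream start of TGFA by chr2:70553827-70554076 on the minus strand and the start of ERBB4 by chr2:212538803-212539052 on the minus strand.
EGFR: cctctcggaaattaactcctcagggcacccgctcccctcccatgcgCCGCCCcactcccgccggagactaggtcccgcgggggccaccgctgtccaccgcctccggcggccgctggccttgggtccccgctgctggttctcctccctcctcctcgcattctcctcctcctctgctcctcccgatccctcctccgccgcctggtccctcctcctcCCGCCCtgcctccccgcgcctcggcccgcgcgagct
HBEGF: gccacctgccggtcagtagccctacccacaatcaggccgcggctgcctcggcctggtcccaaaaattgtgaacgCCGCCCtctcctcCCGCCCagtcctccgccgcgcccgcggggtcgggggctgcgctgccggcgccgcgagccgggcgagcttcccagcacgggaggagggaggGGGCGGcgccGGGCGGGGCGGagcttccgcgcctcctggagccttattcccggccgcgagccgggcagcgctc
TGFA: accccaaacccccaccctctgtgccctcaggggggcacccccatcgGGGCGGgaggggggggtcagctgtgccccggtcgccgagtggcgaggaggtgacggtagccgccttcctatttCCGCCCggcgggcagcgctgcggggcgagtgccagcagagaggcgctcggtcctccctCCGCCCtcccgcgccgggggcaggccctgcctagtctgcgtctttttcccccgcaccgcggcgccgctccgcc
ERBB4: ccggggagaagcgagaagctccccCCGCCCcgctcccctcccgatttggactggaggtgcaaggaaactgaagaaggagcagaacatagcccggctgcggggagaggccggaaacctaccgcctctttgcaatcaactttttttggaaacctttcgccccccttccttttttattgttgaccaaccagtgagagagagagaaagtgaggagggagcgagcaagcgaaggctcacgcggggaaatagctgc

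The window of EGFR held 2 GC boxes, that of HBEGF 5, 1 pair of which overlaps by a base, that of TGFA 3 and that of ERBB4 1. A GC box was found in 42.6% of the 35116 windows in the table, so its presence sets none of these genes apart. None of the 4 windows held the other motifs, which were found in 4.2% (AP-1), 1.65% (CRE) and 6.34% (E box) of all windows and, for the TATA box, in 3763 of the 35116. GC made up 73.6% of the window of EGFR, 76.4% of that of HBEGF, 75.6% of that of TGFA and 57.2% of that of ERBB4, with a median of 58% over all windows. The letters in these windows are a description and say nothing of which factors act there. Of the other members, AREG held 1 CRE, 1 GC box and 1 TATA box, EREG held 1 TATA box, and ERBB2 and BTC held no match. The downstream start of EGFR, at which the window has 38.8% GC, held 2 AP-1 matches and 2 TATA boxes.

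The genes whose 4 ratios were nearest to those of each receptor, by the root mean square difference over the 4 arrays among 27223 genes, were SH3KBP1, KCTD14 and THC2572108 for EGFR, at 0.061 to 0.078 log2 units. SH3KBP1 encodes an adaptor known to take part in EGFR endocytosis, and THC2572108 is an unnamed transcript. For ERBB2 they were IFT122, PPP3CA and PRDX6, at 0.031 to 0.050, and for ERBB3 an unnamed probe, AVL9 and ITGB8, at 0.033 to 0.037. For ERBB4 they were ST6GAL1, a sialyltransferase, PRRT2 and PSAT1, at 0.147 to 0.198. These distances are not scaled to the size of a change, so they do not rank the receptors. Likeness over 4 arrays is a description.

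The remaining EGF family ligands moved little. Calls in this paragraph stand beside 11% of all genes in GALNT3 KO and 47.8% on the GALNT3/T6-labelled arrays. Of EGF, EPGN, NRG2, NRG3 and NRG4, none was called in GALNT3 KO, and EGF (0.46, adjusted p = 0.015) and NRG2 (0.41, adjusted p = 0.0255) were called higher on the GALNT3/T6-labelled arrays, a median of 0.11 over the 5 ligands beside 0.03 over all genes. The NRG2 probes disagreed, and with the mean of all of them NRG2 was lower than Ctrl, at -0.53. EGF and NRG2 also lost their calls without either GALNT3 KO array, with adjusted p up to 0.0509 and 0.069 over the arrays left out one at a time. EPGN stood at -0.09, NRG3 at 0.07 and NRG4 at 0.11. Among the shedding genes, ADAM10, the protease that releases BTC and EGF, was higher on the GALNT3/T6-labelled arrays (1.09, adjusted p = 0.00297) and ADAM17, which releases TGFA, AREG and HBEGF, by 0.47 (adjusted p = 0.0467). RHBDF1, an iRhom that serves ADAM17, was lower at -0.47 (adjusted p = 0.0107), and RHBDF2 stood at -0.56 and did not pass (adjusted p = 0.179). None of the 4 was called in GALNT3 KO. The ADAM17 call was lost without 3 of the 4 arrays taken one at a time, at adjusted p up to 0.216. Without replicate 2 of the GALNT3/T6-labelled group, RHBDF2 was called at -1.15.

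Among the receptor inhibitors ERRFI1 and LRIG3 were called lower in GALNT3 KO and higher on the GALNT3/T6-labelled arrays, and no other was called in opposite directions. Of 9 genes, 1 was called higher and 3 lower in GALNT3 KO, and 4 higher and 2 lower on the GALNT3/T6-labelled arrays. For all genes the shares called, in either direction, were 11% and 47.8%. ERRFI1, the feedback inhibitor that binds the EGFR kinase domain, stood at -1.27 and -1.21 in GALNT3 KO (mean -1.24, adjusted p = 0.0139) and at 2.29 and 2.00 on the GALNT3/T6-labelled arrays (mean 2.14, adjusted p = 0.000284). The signs were opposite on all arrays of the groups, and the difference was 3.38 (adjusted p = 0.000534). LRIG3 went from -1.84 and -2.0 to 0.92 and 0.99, with a difference of 2.88 (adjusted p = 0.000531). LRIG1, which promotes degradation of ERBB receptors, stood at -0.08 in GALNT3 KO and at 1.07 on the GALNT3/T6-labelled arrays (adjusted p = 0.00142). The ubiquitin ligase CBLB was lower in both, at -2.24 in GALNT3 KO (adjusted p = 0.00547) and -0.66 (adjusted p = 0.00454), and CBL did not pass at -0.24 and -0.55. RNF41, a ligase for ERBB3, was higher on the GALNT3/T6-labelled arrays at 0.80 (adjusted p = 0.0091), but not with the mean of all its probes, at -0.03. LRIG2 was lower there at -0.43 (adjusted p = 0.0298), a call lost without either GALNT3 KO array and without replicate 1 of the GALNT3/T6-labelled group, at adjusted p up to 0.126. SOCS5 was higher in GALNT3 KO at 1.13 (adjusted p = 0.0398), and on the GALNT3/T6-labelled arrays it read -0.38 and 0.39, each called when the other was left out. SOCS4 did not pass in either. As for all genes called in GALNT3 KO, these calls were lost when either GALNT3 KO array was left out.

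In the adaptors and the RAS-ERK core, 3 of 21 genes were called in GALNT3 KO, beside 11% of all genes. On the GALNT3/T6-labelled arrays 12 were called, 6 higher and 6 lower, beside 47.8%, so the counts do not set this list apart. The medians were -0.14 and 0.02. EPS8, a substrate of EGFR, rose by far the most, at 3.94 and 4.11 on the GALNT3/T6-labelled arrays (mean 4.02, adjusted p = 9.21e-05), and stood at -0.01 and -0.21 in GALNT3 KO. NRAS was higher there at 1.40 (adjusted p = 0.0017) and GAB2 at 1.07 (adjusted p = 0.0212), while PTPN11, the phosphatase SHP2, was lower at -1.05 (adjusted p = 0.0115). SHC1, the adaptor of the activated receptors, was called higher in GALNT3 KO, at 0.80 (adjusted p = 0.0384), and ARAF (-0.45, adjusted p = 0.0422) was lower there. Both calls were lost without either GALNT3 KO array, as was every call in GALNT3 KO. SHC1 stood at -0.21 on the GALNT3/T6-labelled arrays, a difference of -1.02 between the groups (adjusted p = 0.0228) that was lost without either GALNT3 KO array.

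Genes known to respond to ERK signaling did not move as 1 group. Of 11 immediate early genes, 2 were called higher and none lower in GALNT3 KO, beside 11% of all genes called in either direction. On the GALNT3/T6-labelled arrays 4 were higher and 6 lower, beside 47.8%, and the median was -0.32. EGR1, a transcription factor induced within minutes by growth factors, stood at 2.37 and 2.25 in GALNT3 KO (mean 2.31, adjusted p = 0.00864) and at -2.95 and -2.48 on the GALNT3/T6-labelled arrays (mean -2.72, adjusted p = 0.00032). EGR3 went from 1.28 (adjusted p = 0.0117) to -0.89 (adjusted p = 0.00238). The AP-1 subunit JUN went the other way, from 0.12 with a Ctrl signal not well above background to 4.25 (adjusted p = 9.21e-05), as did ATF3 (2.39, adjusted p = 0.000376) and IER3 (1.95, adjusted p = 0.000558), which were at -0.12 and -0.51 in GALNT3 KO and did not pass there. Between the groups EGR1 fell by 5.03 (adjusted p = 0.000461).

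Of 12 ERK output genes, 2 were called higher in GALNT3 KO, beside 11% of all genes called in either direction. On the GALNT3/T6-labelled arrays 4 were higher and 5 lower, beside 47.8%, with a median of -0.68. SPRY2, a feedback inhibitor of receptor tyrosine kinase signaling, was at -0.20 and 0.04 in GALNT3 KO and at -5.19 and -5.63 on the GALNT3/T6-labelled arrays (mean -5.41, adjusted p = 9.51e-05). DUSP6, the ERK phosphatase, was at 0.11 and 0.10 and then at -4.45 and -3.85 (mean -4.15, adjusted p = 0.000166). SPRY4 was higher in GALNT3 KO (1.24, adjusted p = 0.0113) and lower on the GALNT3/T6-labelled arrays (-2.14, adjusted p = 0.00018). PHLDA1 was higher in both, at 1.05 (adjusted p = 0.0235) and 6.30 (adjusted p = 9.21e-05). With the mean of all its probes the call in GALNT3 KO was lost, at 0.34, and the value on the GALNT3/T6-labelled arrays was 3.35. EGFR, HBEGF and TGFA were thus higher on the same arrays on which SPRY2, DUSP6 and EGR1 were lower and JUN, PHLDA1 and ERRFI1 higher. Phosphorylated receptors and ERK were not measured on these arrays.

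**Figure D2:**
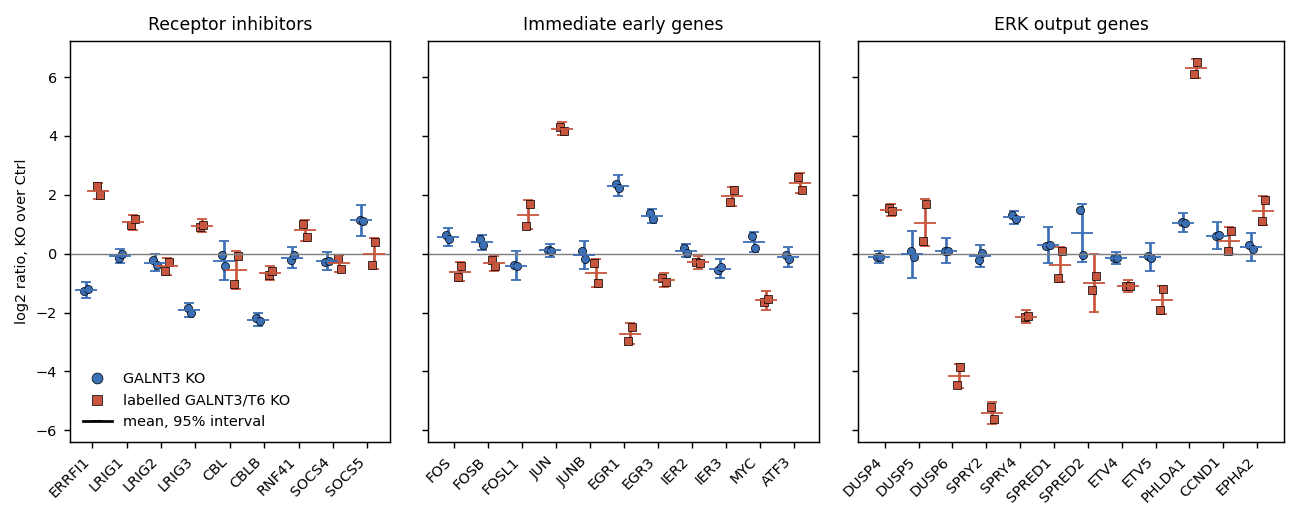
Log2 ratio of KO over Ctrl (vertical axis) for the 9 receptor inhibitors, the 11 immediate early genes and the 12 ERK output genes, with points for the 2 arrays of each group, a bar for the mean and a whisker for the 95% confidence interval. ERRFI1, LRIG3, EGR1, EGR3 and SPRY4 lie on opposite sides of 0 in the 2 groups, and SPRY2 and PHLDA1 reach -5.41 and 6.30.

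Many other receptor tyrosine kinases changed too. Of 25, 6 were called in GALNT3 KO and 18 on the GALNT3/T6-labelled arrays, 10 higher and 8 lower, and of the 4 ERBB receptors none and 3, beside 11% and 47.8% of all genes. PDGFRB (3.44, adjusted p = 0.00041) and AXL (2.29, adjusted p = 0.000212) rose most on the GALNT3/T6-labelled arrays, and PDGFRA (-1.94, adjusted p = 0.00338) and MERTK (-1.75, adjusted p = 0.000442) fell most. In GALNT3 KO the called genes with the largest changes were IGF1R (-1.39, adjusted p = 0.0467), DDR1 (-0.995, adjusted p = 0.0173), ROR2 (0.90, adjusted p = 0.0463) and EPHB4 (-0.76, adjusted p = 0.03). Like every call in GALNT3 KO, these were lost when either GALNT3 KO array was left out. DDR1 was higher on the GALNT3/T6-labelled arrays, and the groups differed by 2.55 (adjusted p = 0.000751).

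Genes next to ERBB2 and to EGFR on their chromosomes did not follow them as blocks. On 4q13 AREG and BTC were themselves not called. Neighbours of ERBB3, ERBB4, HBEGF, TGFA and NRG1 were not examined. Calls among these neighbours stand beside 11% of all genes in GALNT3 KO and 47.8% on the GALNT3/T6-labelled arrays. None of 9 neighbours of ERBB2 on 17q12 was called in GALNT3 KO. On the GALNT3/T6-labelled arrays MED1 was lower (-2.09, adjusted p = 0.00032), as ERBB2 was, while GRB7 (0.72, adjusted p = 0.00538) and IKZF3 (0.34, adjusted p = 0.0352) were higher and STARD3 (0.02), PPP1R1B (0.21), TCAP (-0.21), PNMT (0.08), PGAP3 (-0.60) and MIEN1 (0.32) did not pass. Of 4 neighbours of EGFR on 7p11, LANCL2 was higher by 0.34 (adjusted p = 0.0371) and VOPP1 lower at -0.50 (adjusted p = 0.0236), both without the size of the EGFR change, and SEC61G (-0.03) and VSTM2A (-0.09) did not pass. The calls of IKZF3, LANCL2 and VOPP1 were lost without either GALNT3 KO array, at adjusted p up to 0.181, 0.181 and 0.0789 over the arrays left out one at a time. Around AREG, EREG and BTC on 4q13, 10 of 12 genes passed the filter, none was called in GALNT3 KO and 3 were higher and 3 lower on the GALNT3/T6-labelled arrays, led by CXCL2 at 2.20 (adjusted p = 0.00267) and RCHY1 at -1.26 (adjusted p = 0.0213). The RCHY1 call was lost without either GALNT3 KO array (adjusted p = 0.0834).

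Of 12 markers of ovarian carcinoma epithelium, 11 were well above background in Ctrl on all 4 arrays and KRT7 was not. Also above background there were 6 of 6 fibroblast, 5 of 5 leukocyte and 3 of 3 endothelial markers that passed the filter. Presence above background therefore cannot tell an epithelial line from other cells. None of the 12 epithelial markers was called in GALNT3 KO. On the GALNT3/T6-labelled arrays 8 of 12 were called higher, beside 24.8% of all genes, and none lower, beside 23.1%. The largest rises were those of the keratins KRT18 (5.68, adjusted p = 0.000105), KRT19 (4.81, adjusted p = 0.000322), KRT7 (2.89, adjusted p = 0.000322) and KRT8 (2.83, adjusted p = 0.00032). MUC16, CLDN3 and CLDN4 stood between -0.04 and 0.11. The log2 of the summed signal of the 12 markers ran from 13.31 to 15.58 in Ctrl, from 13.52 to 13.74 in GALNT3 KO and from 19.77 to 19.86 on the GALNT3/T6-labelled arrays. Of 6 fibroblast markers, 2 were called in GALNT3 KO and 5 on the GALNT3/T6-labelled arrays, beside 11% and 47.8% of all genes. Of 5 leukocyte markers it was none and 2, and of 3 endothelial markers 1 and 2. The summed signals of the fibroblast, leukocyte and endothelial markers ran from 14.19 to 15.30, from 12.08 to 12.68 and from 10.80 to 12.05 over all arrays and channels. The part of the cells marked in this way in the results on the members was not tested.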

How the data were processed

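Total RNA of 4 KO clones was hybridized against Ctrl RNA on 2-colour Agilent whole human genome arrays. The authors deposited spot intensities from Agilent Feature Extraction (version 8.5.1.1 by the submitters' processing notes and 10.7.3.1 by the file headers), with probe positions in hg19. They also deposited a table of log10 ratios of KO over Ctrl, used here as an alternative. The deposited intensities were background-corrected (normexp, offset 50) and loess-normalized array by array in limma 3.58.1 (R 4.3.3). Control spots had weight 0 in loess, and outlier spots were left out. Spots of a probe were averaged, dim probes were dropped unless either channel was well above background on both arrays of either group, and the brightest remaining probe stood for its gene. limma fitted all 4 arrays with a mean for each group. p-values were adjusted over all 27223 genes by Benjamini-Hochberg, and the fit was tested on simulated data. Channel signals and lower bounds come from loess and Aquantile scaling. The number of arrays limits the precision.

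The members and the gene lists were chosen with earlier results of these data known. The text names all 10 members, GALNT3 and GALNT6, the 3 genes nearest to each receptor, each gene of the small lists, and of other lists at most 4 called genes with the largest change in a comparison. A t-test, which the methods name for blots and functional assays and not for the arrays, was run as an alternative. The clone numbers do not pair the samples. Over all genes the deviations of clones with the same number correlated at -0.239. Promoter and probe sequences come from RefSeq (GRCh38.p14) and the files. A called gene of the adaptor list is not reported here by name.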

Additional observations from a re-analysis of the deposited data

Results flagged for a closer look

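The response of 5 members against Ctrl differed between the groups by limma's test of the difference. On the GALNT3/T6-labelled arrays relative to GALNT3 KO, EGFR was higher by 1.52 (adjusted p = 0.00292), HBEGF by 1.00 (adjusted p = 0.00802), TGFA by 0.95 (adjusted p = 0.0166) and NRG1 by 1.01 (adjusted p = 0.0375) on the log2 scale, and ERBB4 differed by -2.87 (adjusted p = 0.00173). In each the 2 arrays of a group lay on the same side of both arrays of the other group. The 5 were picked by that test, so this separation is no further support, and its share over all genes was not counted. The same test called 23.7% of all genes. For EGFR the Ctrl signal also differed between the groups of arrays, by 1.73, for NRG1 by 1.1 and for HBEGF by 0.80, against 0.03 for ERBB4. Without replicate 1 of GALNT3 KO, left out after seeing the data, these Ctrl differences were 1.72 for EGFR, 0.26 for NRG1 and 0.15 for HBEGF. Without replicate 2 of GALNT3 KO they were 1.74, 1.94 and 1.45. The Ctrl signal of TGFA was not well above background on any array, and its difference was 1.79 with Agilent's own log ratio. TGFA passed the filter only through its KO signal on the GALNT3/T6-labelled arrays, where it was higher. The part of the Ctrl signal in these differences was not tested.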

How the results depend on the processing

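Of 437 member values under 15 alternatives, 390 kept their side of the threshold, 36 lost a call and 11 gained one. No called value turned its sign, and 7 values that were not called in either fit did. Among the other genes named, the mean of all probes turned NRG2 to -0.39 in GALNT3 KO and -0.53 on the GALNT3/T6-labelled arrays, and RNF41 to -0.032 there, while SOCS5 read -0.38 without replicate 2 of that group and 0.39 without replicate 1.

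The count of members called in GALNT3 KO was 1 in the fit reported. It was 2 when each group had its own spread, in which fit 34.7% of all genes were called. Without either GALNT3 KO array no gene was called in GALNT3 KO, so a call lost in that way sets no member apart. The count on the GALNT3/T6-labelled arrays, 7 in the fit reported, ran from 6 to 8, and the count between the groups, 5 in the fit reported, from 1 to 6, when an array was left out, where a lone array was assumed to vary like the other group. In these fits 30.4% to 47.5% of all genes were called on the GALNT3/T6-labelled arrays and 4.44% to 32.8% between the groups. A t-test without limma's moderation called 0 members in each of the 3 comparisons after adjustment, beside 0%, 0.0037% and 0.121% of all genes. With 2 arrays a group it called almost no gene, so its 0 says nothing about the members in particular. The study's methods name no test for the arrays.

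With the clone number as a replicate block the counts were 0, 6 and 4, beside 0.301%, 37.1% and 17.4% of all genes, which ended the call of NRG1 in GALNT3 KO and between the groups and that of EREG. The crossed pairing, chosen after seeing the data, gave 1, 7 and 5, beside 13.5%, 49.8% and 26.9% of all genes. Signal limits TGFA most, since its Ctrl signal was not well above background.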
